A study of Mus with 96 samples.

Results

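Dbp, Tef, Hlf and Nfil3 were followed in the livers of mice whose hepatocytes were labelled as carrying or lacking Bmal1, on either of 2 diets. The genes were taken by symbol, with earlier results of these data known, and each matched 1 of the 55487 genes counted. Dbp (ENSMUSG00000059824) lies on chromosome 7 at 45705100 to 45710203, Tef (ENSMUSG00000022389) on chromosome 15 at 81802673 to 81826863, Hlf (ENSMUSG00000003949) on chromosome 11 at 90336535 to 90390917, and Nfil3 (ENSMUSG00000056749) on chromosome 13 at 52967209 to 52982878. The positions span whole genes in the RefSeq annotation of GRCm38.p6, the mm10 build to which the reads were aligned, and were matched by symbol. All 4 genes were counted in each of the 96 livers, with at least 8 reads for Dbp and Nfil3, 15 for Hlf and 30 for Tef, and all 4 were among the 15548 genes tested.

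Dbp, Tef and Hlf encode the proline and acidic amino acid-rich (PAR) basic leucine zipper proteins, which bind D-box elements as homodimers or heterodimers and activate transcription there. NFIL3, also called E4BP4, is a basic leucine zipper protein that binds the same elements and represses. In the liver, Dbp is a direct target of BMAL1 and CLOCK at E-boxes, whereas Nfil3 is repressed by the REV-ERB receptors, so that both arms of the clock meet at D-box genes such as those of drug, haem and bile acid metabolism.

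The livers came from C57BL/6J mice aged 8 to 10 weeks at the start of housing under 12 hours of light and 12 hours of dark. Hep-Bmal1WT mice were Alb+/+ Bmal1flx/flx littermates of the AlbCre/+ Bmal1flx/flx mice called Hep-Bmal1KO, so all mice of both genotypes carried floxed Bmal1. Cre was driven by the albumin promoter to delete the gene in hepatocytes, and whether the other cells of the liver kept it was not tested here. Mice of each genotype ate 1 of 2 diets for 2 weeks. Normal chow (NC) held 14% fat, 59% carbohydrate and 27% protein. The other, a high-fat diet deficient in choline (cdHFD), held 60% fat, 31% carbohydrate and 9% protein, with 0.17% methionine and 2% cholesterol. Livers were collected at zeitgeber time (ZT) 2, 6, 10, 14, 18 and 22, with lights on at ZT 0, and each of the 24 groups held 4 mice. Every group had 2 males and 2 females except Hep-Bmal1WT cdHFD at ZT14, which had 3 males and 1 female.

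The reads counted on genes numbered 1861740 to 9718615 per liver (median 6412078.5). Levels are given as CPM, the reads of a gene divided by the TMM-scaled size of its library and brought to a common library size. All 8 hepatocyte markers examined were counted in every liver. No 2 replicates of a group were closer than sampling noise allows. Genotype and diet did not share any of the 12 plate columns named in the labels, so that plate column and group cannot be told apart. Arntl (the symbol of Bmal1 in the table) cannot check the deletion, because reads come from the 3′ portion of the mRNA and need not cover the floxed exon. In Hep-Bmal1WT livers on NC, Arntl ran from 0.748 ± 0.463 CPM at ZT10 to 20.2 ± 4.65 CPM at ZT2 (SD, n = 4), and in Hep-Bmal1KO livers from 5.74 ± 1.45 CPM at ZT14 to 9.83 ± 2.55 CPM at ZT2.

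Of the 96 libraries, 7 went against their genotype label. They lay nearer the median of the other genotype at their diet and ZT on a panel of 10 clock genes and on a second panel of the 20 genes that separated the genotypes best on the same diet at the other times, none of them Dbp, Tef, Hlf or Nfil3. Those labelled Hep-Bmal1WT were NC ZT6 replicate 2, NC ZT18 replicate 4, cdHFD ZT10 replicate 3 and cdHFD ZT14 replicate 1. Those labelled Hep-Bmal1KO were NC ZT6 replicate 4, NC ZT10 replicate 3 and cdHFD ZT14 replicate 1. Groups follow the labels throughout, and results for the 4 genes are also given without these 7 libraries, at least where that changes a call. Counts for lists of other genes use all libraries unless stated. Clock genes move together with the 4 genes studied, so leaving out libraries by a clock panel is not independent of them.

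Dbp was the gene with the widest daily range. In Hep-Bmal1WT livers on NC, its level was 7.93, 6.21, 4.75 and 4.90 CPM at ZT2 and 255, 196, 317 and 292 CPM at ZT10. The mean was 44.6 times higher at the peak, 265 ± 52.9 CPM at ZT10, than at the trough, 5.95 ± 1.48 CPM at ZT2 (SD, n = 4), and the ranges at ZT10 did not meet those at any other time. In between, at ZT6, 3 livers were at 59.8, 86.8 and 84.7 CPM and the library against its label, replicate 2, was at 12.1 CPM.

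In Hep-Bmal1KO livers on NC the Dbp values split by library. At ZT10 the levels were 23.9, 37.7 and 42.6 CPM in 3 livers and 366 CPM in replicate 3, which went against its label. At ZT6 they were 10.2, 14.2 and 16.4 CPM in 3 livers and 147 CPM in replicate 4, which also went against its label. The mean at ZT10 was therefore 118 ± 166 CPM with all 4 livers and 34.7 ± 9.70 CPM (n = 3) without that library, against a trough of 7.28 ± 2.64 CPM at ZT18.

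At ZT14 no library of either genotype on NC was against its label, and Dbp was at 118, 123, 25 and 32.5 CPM in Hep-Bmal1WT and at 18.8, 17.5, 11.3 and 8.64 CPM in Hep-Bmal1KO livers. The groups did not overlap. Among the Hep-Bmal1WT livers, those at 118 and 123 CPM were from males and those at 25 and 32.5 CPM from females. Dbp was lower in Hep-Bmal1KO livers by a log2 fold change of -2.42 ± 0.574 (SE; edgeR's quasi-likelihood test, adjusted p = 0.00472), that is 18.6% of the Hep-Bmal1WT level. At ZT14, 2 of the 4 genes (Dbp and Tef) passed the test, both lower, against 4.67% of all genes tested (2.08% lower). In females alone none of the 4 genes passed at ZT14, where 184 of all genes did, against 726 with all livers.

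**Figure D1:**
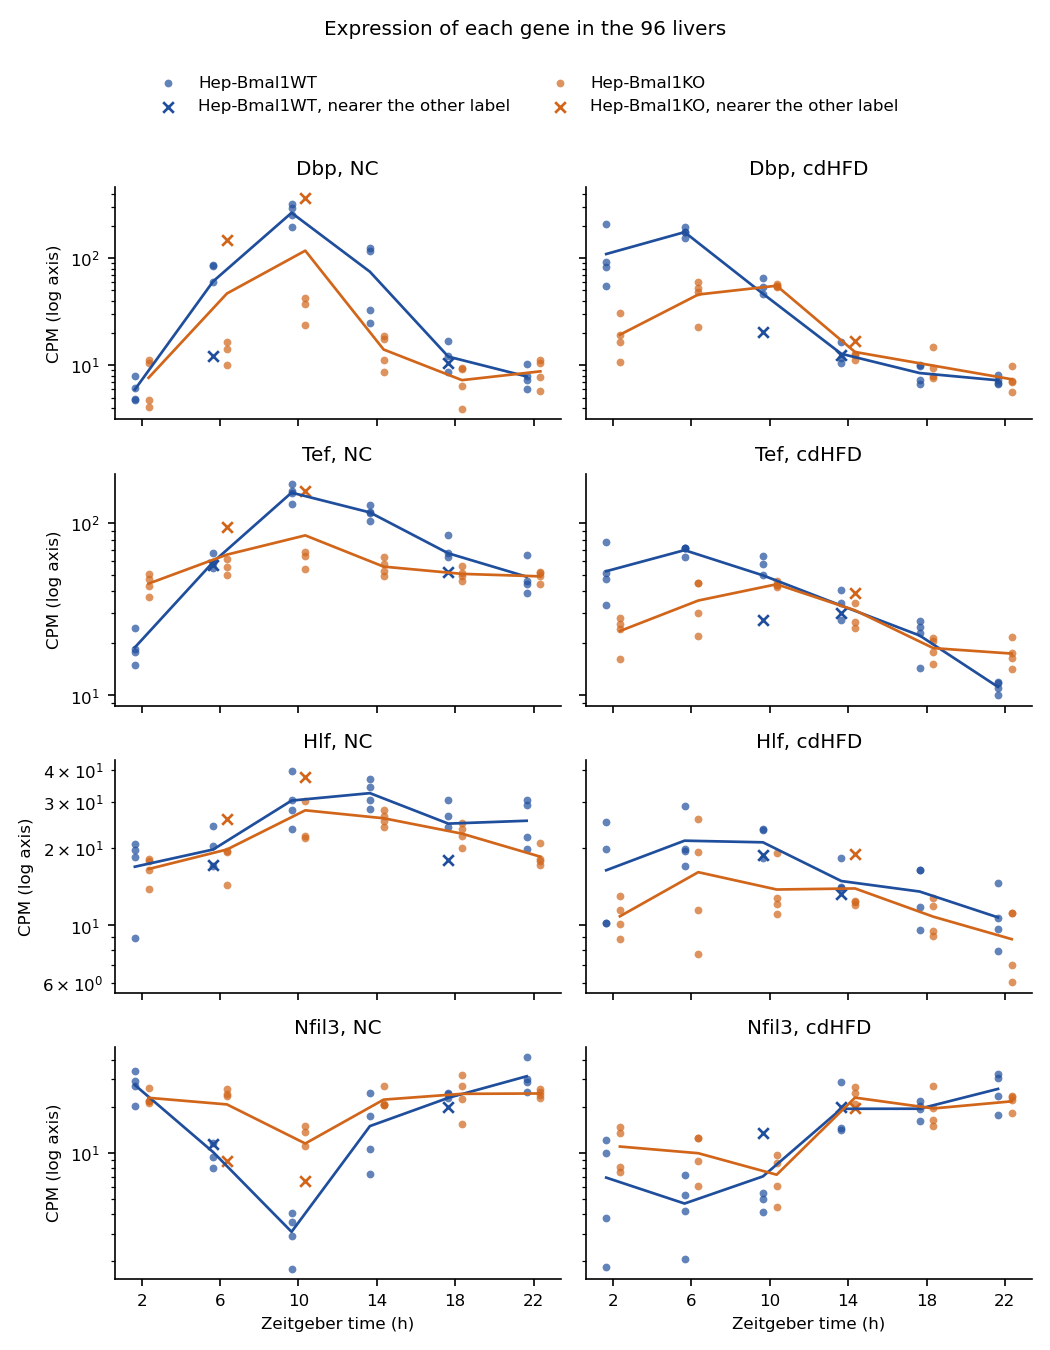
Expression of Dbp, Tef, Hlf and Nfil3 in CPM (log axis) against zeitgeber time in hours, on NC at left and cdHFD at right. Each point is 1 liver, crosses are the 7 libraries nearer the other genotype label, and lines join the group means of 4 livers. Dbp peaked at ZT10 on NC and at ZT6 on cdHFD in Hep-Bmal1WT livers, and the Hep-Bmal1KO mean at NC ZT10 is carried by 1 cross at 366 CPM.

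Tef was both higher and lower in Hep-Bmal1KO livers depending on the time. At ZT2 it stood at 14.9, 24.6, 17.8 and 18.5 CPM in Hep-Bmal1WT livers on NC and at 37, 50.3, 47.2 and 43.3 CPM in Hep-Bmal1KO livers, with no overlap. Tef rose in Hep-Bmal1KO livers at ZT2 by a log2 fold change of 1.22 ± 0.232 (adjusted p = 0.00466), as the only one of the 4 genes to pass at that time, where 0.823% of all genes passed (0.56% higher).

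The difference had the opposite sign 8 and 12 hours later. At ZT10 Tef stood at 148, 129, 167 and 154 CPM in Hep-Bmal1WT livers and at 54, 63.9, 68.1 and, in the library against its label, 152 CPM in Hep-Bmal1KO livers. The log2 fold change was -0.83 ± 0.214 (adjusted p = 0.017), and -1.27 ± 0.188 without the libraries against their labels (adjusted p = 4.3e-07, against 7.49% of all genes passing at this time in that fit). At ZT14 Tef stood at 115, 127, 103 and 114 CPM in Hep-Bmal1WT and at 48.9, 52.6, 63.5 and 57.8 CPM in Hep-Bmal1KO livers. These groups did not overlap, and the log2 fold change was -1.04 ± 0.217 (adjusted p = 0.000991).

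Because of this change of sign, the level of Tef over the whole day on NC differed by a log2 fold change of only -0.18 ± 0.141 (adjusted p = 0.492). Its peak in Hep-Bmal1WT livers was 7.88 times its trough, from 19 ± 4.07 CPM at ZT2 to 149 ± 15.8 CPM at ZT10. In Hep-Bmal1KO livers the peak was 1.90 times the trough, from 44.4 ± 5.73 CPM at ZT2 to 84.5 ± 45.4 CPM at ZT10, the latter 62 ± 7.25 CPM (n = 3) without the library against its label.

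Hlf, the third PAR factor, had the smallest amplitude in Hep-Bmal1WT livers. In Hep-Bmal1WT livers on NC it went from 19.6, 18.4, 8.91 and 20.6 CPM at ZT2 to 37, 30.7, 34.2 and 28.2 CPM at ZT14, a mean 1.93 times higher. In Hep-Bmal1KO livers it went from 13.9, 18, 17.8 and 16.4 CPM at ZT2 to 30.2, 22.2, 37.4 and 21.8 CPM at ZT10, a mean 1.69 times higher, where 37.4 CPM belonged to the library against its label. Peak and trough did not overlap in either genotype. At no time on NC did Hlf pass the test between genotypes, with log2 fold changes from -0.46 ± 0.24 at ZT22 to 0.00 ± 0.239 at ZT6.

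Nfil3, the repressor, ran opposite to Dbp. In Hep-Bmal1WT livers on NC it was lowest at ZT10, at 1.78, 4.09, 3.57 and 2.88 CPM, and highest at ZT22, at 29, 30.3, 41.7 and 24.8 CPM. The peak was 10.2 times the trough. Only 8 to 21 reads lay behind each value at that trough, so counting error is largest there.

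In Hep-Bmal1KO livers on NC the trough of Nfil3 was shallow. Its level at ZT10 was 11, 14.9 and 13.6 CPM, and 6.58 CPM in the library against its label, all above the 4 Hep-Bmal1WT livers. Nfil3 was higher by a log2 fold change of 1.90 ± 0.406 at this time (adjusted p = 0.00244), and 2 of the 4 genes (Tef and Nfil3) passed at ZT10 against 2.66% of all genes. At ZT6 the levels were 8.01, 11.5, 9.39 and 11.7 CPM in Hep-Bmal1WT livers and 23.6, 24.2, 26.1 and, in the library against its label, 8.81 CPM in Hep-Bmal1KO livers. The log2 fold change of 1.03 ± 0.335 at ZT6 did not pass after adjustment (adjusted p = 0.248), whereas without the libraries against their labels it was 1.36 ± 0.354 (adjusted p = 0.0214).

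At ZT6 none of the 4 genes passed in edgeR or DESeq2 with all libraries, against 0.00643% of all genes, and Nfil3 alone had an unadjusted p under 0.05, against 10.4% of all genes. Dbp at that time had a log2 fold change of -0.37 ± 0.529 with all libraries and -2.50 ± 0.412 without those against their labels (adjusted p = 4.45e-05), and 2 of the 4 genes then passed, against 2.45% of all genes. At ZT10 the same step moved Dbp from -1.18 ± 0.524 (adjusted p = 0.248) to -2.93 ± 0.39 (adjusted p = 6.78e-08). At ZT18 and ZT22 none of the 4 genes passed in edgeR or DESeq2, with none at an unadjusted p under 0.05 either, against 0.515% and 1.19% of all genes after adjustment and 10.9% and 11.6% before it.

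**Figure D2:**
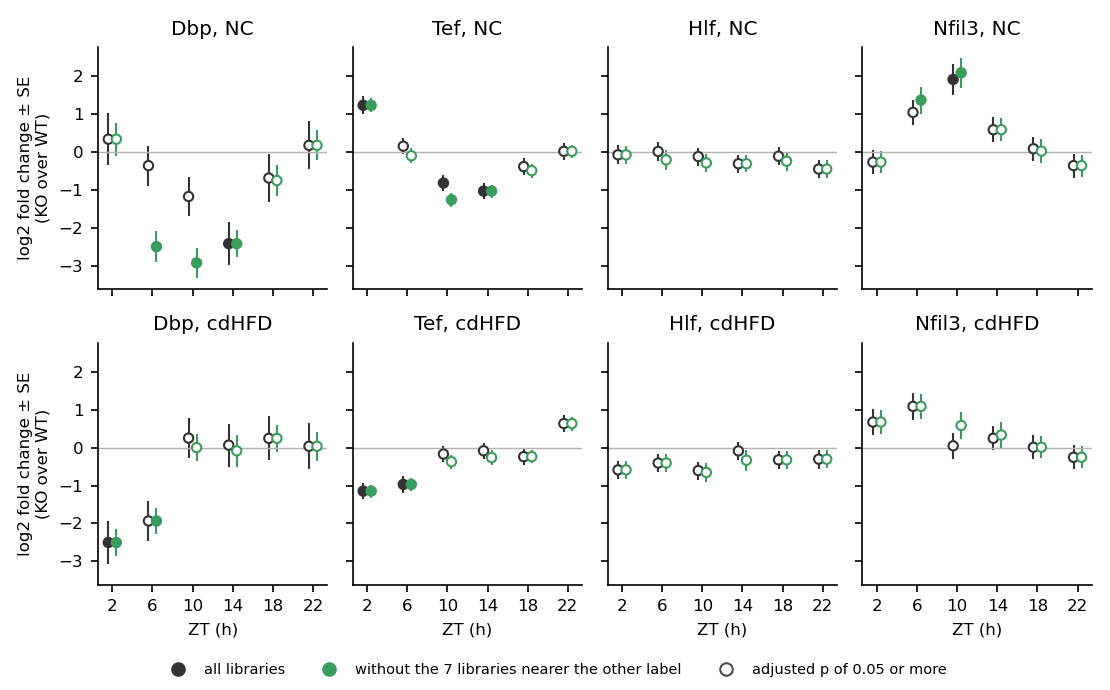
Log2 fold change of Hep-Bmal1KO over Hep-Bmal1WT (points, with bars of 1 SE) for each gene against zeitgeber time in hours, on NC in the upper row and cdHFD in the lower row, with all libraries (dark) and without the 7 nearer the other label (green). Filled points have an adjusted p under 0.05. Tef on NC goes from 1.22 at ZT2 to -1.04 at ZT14, and Dbp at ZT6 and ZT10 passes only without the 7 libraries.

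The rhythm of each gene over the 6 times was tested within each group of 24 livers with a cosine and a sine of 24 hours. On NC all 4 genes were rhythmic in Hep-Bmal1WT livers, where 19% of all genes were. Amplitudes, the distance from the fitted mean to the peak on a log2 scale, were 2.33 ± 0.249 for Dbp, 1.17 ± 0.121 for Tef, 0.38 ± 0.0881 for Hlf and 1.16 ± 0.131 for Nfil3 (SE). Dbp had the third largest amplitude of the 2952 rhythmic genes. The fitted peaks followed each other from Dbp at ZT 10.48 ± 0.407 through Tef at 12.63 ± 0.393 and Hlf at 14.15 ± 0.88 to Nfil3 at 21.87 ± 0.429, which was 11.39 hours after Dbp.

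In Hep-Bmal1KO livers on NC, 3 of the 4 genes were rhythmic, against 4.37% of all genes. Dbp had an amplitude of 1.24 ± 0.308 (adjusted p = 0.00892), Tef of 0.32 ± 0.0971 (adjusted p = 0.0361) and Hlf of 0.33 ± 0.0586 (adjusted p = 0.00675), while Nfil3 at 0.37 ± 0.112 did not pass (adjusted p = 0.149). Without the libraries against their labels the amplitudes were 0.77 ± 0.158 for Dbp and 0.19 ± 0.0452 for Tef, and Tef no longer passed (adjusted p = 0.0744), so that 2 of the 4 genes did, against 4.12% of all genes. These calls were not stable: when 1 replicate of every group was left out in turn, between 0 and 1 of the 4 genes passed, with an adjusted p of 0.0515 to 0.0978 for Dbp. Of all genes, 134 to 188 passed in the same fits, against 679 with all livers. The order of the peaks was again Dbp at ZT 9.29 ± 0.951, Tef at 10.06 ± 1.15, Hlf at 12.94 ± 0.683 and Nfil3 at 21.31 ± 1.17, and neighbouring peaks of Dbp and Tef lay within 1 SE of each other.

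Between genotypes on NC, the amplitude was lower in Hep-Bmal1KO livers for 3 of the 4 genes at an unadjusted p under 0.05, the threshold the study used, against 4.12% of all genes (3.83% lower). Over the livers on NC (n = 48) the difference was -1.10 ± 0.396 for Dbp (p = 0.00815), -0.85 ± 0.155 for Tef (p = 2.07e-06) and -0.80 ± 0.172 for Nfil3 (p = 3.61e-05). After adjustment over all genes only Tef passed (adjusted p = 0.0322), and without the libraries against their labels Dbp (-1.63 ± 0.275, adjusted p = 0.000685) and Nfil3 (-0.96 ± 0.164, adjusted p = 0.000842) passed as well. The amplitude of Hlf differed by -0.06 ± 0.106, with a 95% interval from -0.27 to 0.16. The separate test of the whole curve called 1 of the 4 genes, Tef (adjusted p = 0.0231), against 0.302% of all genes, and 3 of them, Dbp, Tef and Nfil3, without the libraries against their labels, against 1.02%.

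Peak times did not differ detectably between genotypes on NC for any of the 3 genes rhythmic in both, against 13% of the genes that could be compared. The shift was -1.19 hours for Dbp (95% interval -3.17 to 0.78), -2.57 hours for Tef (-5.29 to 0.16) and -1.21 hours for Hlf (-3.53 to 1.11), and the 4 hours between collections limit how small a shift could be seen. With the libraries against their labels left out, the shifts were -0.33 ± 1.01 hours for Dbp, -1.52 ± 2.01 hours for Tef and -0.59 ± 1.09 hours for Hlf, and with 1 replicate of every group left out in turn that of Dbp ran from -1.74 to -0.279 hours. Averaged over the day, none of the 4 genes passed between genotypes on NC, against 12.2% of all genes, although 3 had an unadjusted p under 0.05, as had 23.8% of all genes, and DESeq2 called 1, Nfil3 (adjusted p = 0.0286). Dbp had a log2 fold change of -0.78 ± 0.325 (adjusted p = 0.121), Hlf of -0.19 ± 0.0777 (adjusted p = 0.107) and Nfil3 of 0.40 ± 0.159 (adjusted p = 0.098). Without the libraries against their labels Dbp, at -1.46 ± 0.288 (adjusted p = 0.000236), and Hlf, at -0.28 ± 0.0734 (adjusted p = 0.00423), passed, against 16.8% of all genes.

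**Figure D3:**
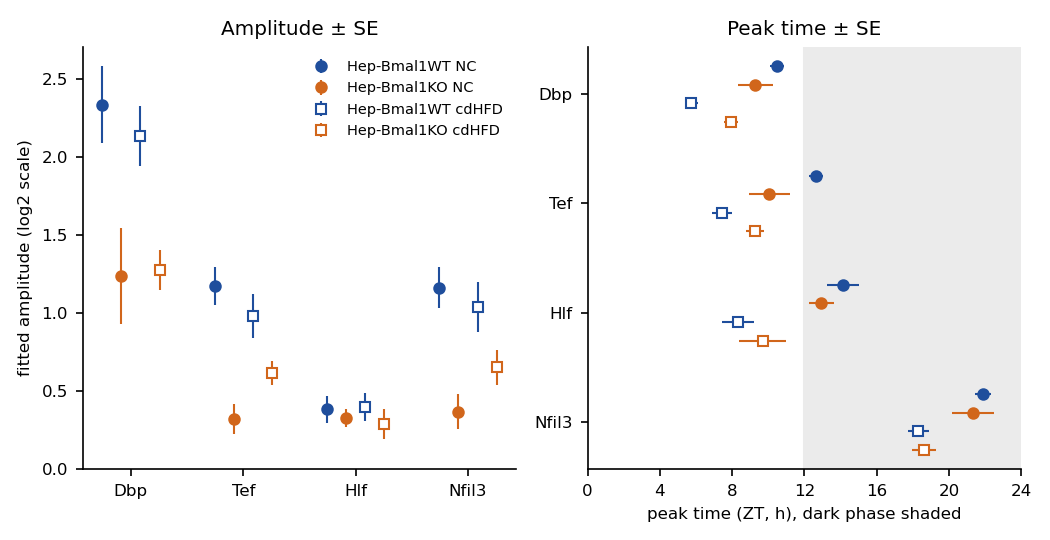
Fitted amplitude (left, log2 scale) and peak time (right, in hours of zeitgeber time, dark phase shaded) of each gene in the 4 combinations of genotype and diet, 24 livers each, with bars of 1 SE. On NC the amplitude of Tef is 0.32 in Hep-Bmal1KO against 1.17 in Hep-Bmal1WT livers, and in Hep-Bmal1WT livers the peak of Dbp lies at ZT 5.75 on cdHFD against 10.48 on NC.

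Since PAR factors and NFIL3 share their binding elements, the log2 ratio of each activator to Nfil3 was computed in each liver. Only its change over the day is read, because the ratio of 2 genes also depends on how each is captured. In Hep-Bmal1WT livers on NC the ratio of Dbp to Nfil3 went from -2.17 ± 0.503 at ZT2 to 6.32 ± 0.614 at ZT10 (SD, n = 4), a span of 8.49. In Hep-Bmal1KO livers it went from -1.72 ± 0.919 at ZT18 to 2.44 ± 2.20 at ZT10, a span of 4.17, and the highest liver at ZT10, at 5.73, was the library against its label. The span was 6.05 against 1.83 for Tef and 3.96 against 1.74 for Hlf in Hep-Bmal1WT and Hep-Bmal1KO livers on NC. The span was narrower in Hep-Bmal1KO livers for all 3 activators on NC, and on cdHFD it was 7.01 against 4.47 for Dbp, 5.08 against 2.93 for Tef and 3.45 against 2.23 for Hlf. No test was run on these spans.

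**Figure D4:**
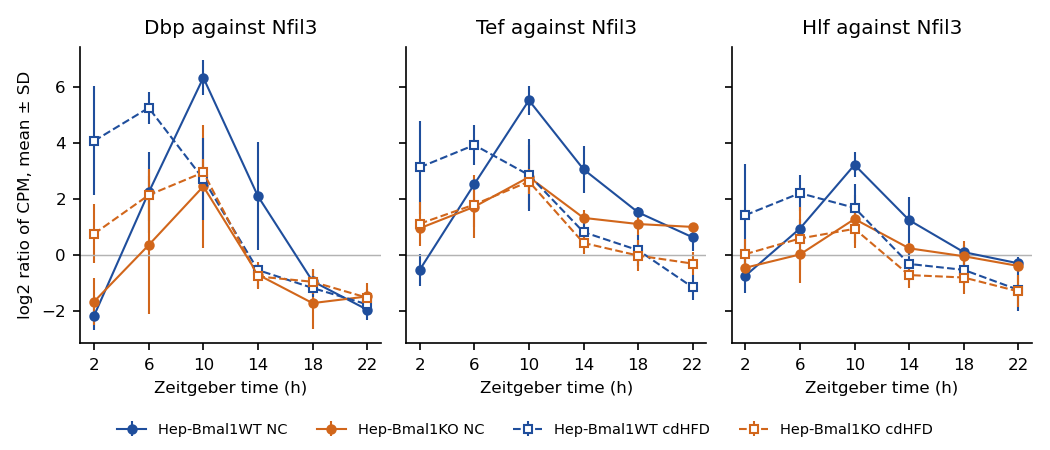
Log2 ratio of the CPM of Dbp, Tef and Hlf to that of Nfil3 against zeitgeber time in hours, as mean and SD of 4 livers per group. The ratio of Dbp spans 8.49 over the day in Hep-Bmal1WT NC livers and 4.17 in Hep-Bmal1KO NC livers, and its highest point is at ZT6 in Hep-Bmal1WT cdHFD livers and at ZT10 in the other groups.

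On cdHFD the genotypes differed early in the light phase. At ZT2 Dbp stood at 92.7, 208, 55.3 and 81.8 CPM in Hep-Bmal1WT livers and at 16.4, 19.4, 30.9 and 10.7 CPM in Hep-Bmal1KO livers, without overlap. Dbp was lower by a log2 fold change of -2.50 ± 0.555 (adjusted p = 0.0204). Tef at ZT2 stood at 51, 77.8, 33.6 and 47.2 CPM in Hep-Bmal1WT and at 24.2, 25.9, 27.9 and 16.4 CPM in Hep-Bmal1KO livers, again without overlap, and was lower by a log2 fold change of -1.15 ± 0.219 (adjusted p = 0.00545). These 2 of the 4 genes passed at ZT2, both lower, against 0.334% of all genes (0.18% lower).

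At ZT6 Dbp stood at 154, 174, 175 and 196 CPM in Hep-Bmal1WT livers on cdHFD and at 22.7, 48.1, 59.8 and 52.6 CPM in Hep-Bmal1KO livers. Although these groups did not overlap, the log2 fold change of -1.93 ± 0.536 did not pass after adjustment (adjusted p = 0.102), and it passed without the libraries against their labels, none of which was in these 2 groups (adjusted p = 0.000156), where 0.888% of all genes passed. All groups share 1 estimate of the spread in this test, and leaving out the 7 libraries lowered the SE to 0.332 with the same log2 fold change.

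Tef at ZT6 stood at 71.3, 71.1, 63.5 and 71.8 CPM in Hep-Bmal1WT livers on cdHFD and at 22.2, 30.2, 44.7 and 44.7 CPM in Hep-Bmal1KO livers. It was lower by -0.97 ± 0.216 (adjusted p = 0.0236), as 1 of the 4 genes against 0.244% of all genes (0.0643% lower). Nfil3 at ZT6 stood at 2.04, 5.33, 4.19 and 7.25 CPM in Hep-Bmal1WT and at 12.4, 8.91, 12.5 and 6.08 CPM in Hep-Bmal1KO livers, and its log2 fold change of 1.08 ± 0.357 did not pass (adjusted p = 0.232). The groups overlapped by 1 Hep-Bmal1KO liver.

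From ZT10 to ZT22 on cdHFD, none of the 4 genes passed in edgeR's test or in DESeq2, against 0.0129% of all genes at ZT10, ZT18 and ZT22 and 0% at ZT14. An unadjusted p under 0.05 was seen for 1 gene at ZT10 (Hlf, log2 fold change -0.61 ± 0.236) and 1 at ZT22 (Tef, 0.63 ± 0.231), and for none at ZT14 or ZT18. The shares of all genes under that threshold were 8.45%, 2.79%, 5.86% and 8.99% at ZT10, ZT14, ZT18 and ZT22. At ZT10 Dbp stood at 54.2, 65.8, 46.1 and, in the library against its label, 20.3 CPM in Hep-Bmal1WT and at 53.4, 55.5, 54.6 and 57.9 CPM in Hep-Bmal1KO livers. Here the ranges of the genotypes overlapped. Dbp had its highest mean of the day at ZT6 in Hep-Bmal1WT livers and at ZT10 in Hep-Bmal1KO livers.

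All 4 genes were rhythmic in Hep-Bmal1WT livers on cdHFD, against 14.5% of all genes, and 3 were in Hep-Bmal1KO livers, against 3.6%. The fourth was Hlf, whose amplitude of 0.29 ± 0.0983 did not pass (adjusted p = 0.105). Dbp had the largest amplitude of all 2256 rhythmic genes in Hep-Bmal1WT livers on cdHFD and the second largest of 559 in Hep-Bmal1KO livers. Amplitudes in Hep-Bmal1WT and Hep-Bmal1KO livers were 2.13 ± 0.19 and 1.28 ± 0.129 for Dbp, 0.98 ± 0.14 and 0.61 ± 0.0769 for Tef, and 1.04 ± 0.159 and 0.65 ± 0.114 for Nfil3.

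The amplitude was lower in Hep-Bmal1KO livers on cdHFD for 2 of the 4 genes at an unadjusted p under 0.05, against 2.91% of all genes (2.59% lower). Over the livers on cdHFD (n = 48) the difference was -0.86 ± 0.229 for Dbp (p = 0.000547) and -0.37 ± 0.16 for Tef (p = 0.0263), with neither passing after adjustment (adjusted p = 0.66 and 1). For Nfil3 it was -0.39 ± 0.196 (95% interval -0.79 to 0.01). The test of the whole curve called Dbp alone (adjusted p = 0.00249), against 0.386% of all genes.

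The peak of Dbp came later in Hep-Bmal1KO livers on cdHFD. It lay at ZT 7.95 ± 0.386 against 5.75 ± 0.34 in Hep-Bmal1WT livers, a delay of 2.21 ± 0.566 hours (n = 48, p = 0.000345, adjusted p = 0.0174). Tef peaked 1.81 ± 0.83 hours later (n = 48, p = 0.0346, adjusted p = 0.251), and Nfil3 differed by 0.32 ± 0.96 hours (95% interval -1.62 to 2.25). Thus 2 of the 3 genes rhythmic in both genotypes were shifted at an unadjusted p under 0.05, against 17.5% of all genes compared. Hlf was not rhythmic in Hep-Bmal1KO livers on cdHFD, and whether these shifts differed from those on NC was not tested. Without the libraries against their labels the delay was 2.03 ± 0.557 hours for Dbp (adjusted p = 0.0309) and 1.39 ± 0.801 hours for Tef (p = 0.0901, n = 45).

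Over the whole day on cdHFD, 2 of the 4 genes were lower in Hep-Bmal1KO livers, against 9.54% of all genes called in either direction and 4.98% called lower. Dbp fell by 0.72 ± 0.233 on the log2 scale (adjusted p = 0.0416) and Hlf by 0.39 ± 0.111 (adjusted p = 0.0159). Tef at -0.36 ± 0.129 (adjusted p = 0.0698) and Nfil3 at 0.26 ± 0.158 (adjusted p = 0.369) did not pass, though Tef did without the libraries against their labels (-0.43 ± 0.126, adjusted p = 0.016), as 1 of 3 genes called where 12.9% of all genes were. With 1 replicate of every group left out in turn, between 0 and 1 of the 4 genes passed. Of all genes, 485 to 1335 passed in the same fits, against 1484 with all livers.

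The comparisons of diet share their livers with those of genotype, since each group of 24 is used in 1 comparison of each kind. In Hep-Bmal1WT livers cdHFD moved all 4 peaks earlier without a detectable change of amplitude. The curve of each of the 4 genes differed between diets, against 6.14% of all genes. The peak of Dbp was shifted by -4.74 ± 0.536 hours (adjusted p = 6.37e-09), that of Tef by -5.17 ± 0.663 hours (adjusted p = 7.01e-08), that of Hlf by -5.84 ± 1.23 hours (adjusted p = 0.000176) and that of Nfil3 by -3.56 ± 0.718 hours (adjusted p = 9.24e-05). A shift at an unadjusted p under 0.05 was seen in 47.4% of the 960 genes rhythmic on both diets (42.4% earlier), whose median shift was -2.06 hours.

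The amplitudes in Hep-Bmal1WT livers differed between diets by -0.20 ± 0.313 for Dbp (95% interval -0.83 to 0.43), -0.19 ± 0.185 for Tef (-0.57 to 0.18), 0.01 ± 0.126 for Hlf (-0.24 to 0.27) and -0.12 ± 0.206 for Nfil3 (-0.54 to 0.29). None of the 4 had an unadjusted p under 0.05, against 7.96% of all genes. Levels over the day were lower on cdHFD for Tef, by 0.95 ± 0.225 on the log2 scale (adjusted p = 0.000359), and for Hlf, by 0.62 ± 0.118 (adjusted p = 1.43e-05). With 2 of 4 called, the share was near the 55.4% of all genes that passed (26.8% lower). Dbp differed by -0.17 ± 0.454 (adjusted p = 0.779) and Nfil3 by -0.38 ± 0.216 (adjusted p = 0.136).

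In Hep-Bmal1KO livers the curve of none of the 4 genes differed between diets, against 0.888% of all genes, while 2 (Tef and Nfil3) had an unadjusted p under 0.05, as had 13.8% of all genes, and none called by DESeq2. Without the libraries against their labels the curve of Tef passed (adjusted p = 0.0065), where 1.34% of all genes did. Dbp peaked at ZT 7.95 ± 0.386 on cdHFD and 9.29 ± 0.951 on NC, a shift of -1.34 hours with a 95% interval from -3.39 to 0.71, and Tef was shifted by -0.80 hours (-3.17 to 1.58). Neither of the 2 genes rhythmic on both diets was shifted at an unadjusted p under 0.05, against 45.3% of the 95 genes compared. Hlf and Nfil3 were each not called rhythmic on 1 of the diets and were not counted. Their fitted shifts were -3.25 hours (95% interval -6.13 to -0.38) and -2.69 hours (-5.42 to 0.05). Whether the shift of a peak with diet differed between genotypes was not tested. Once the libraries against their labels were left out, the shift of Dbp was -1.91 ± 0.844 hours (n = 45, p = 0.029, adjusted p = 0.069) and that of Tef -2.17 ± 1.40 hours. Tef had a larger amplitude on cdHFD, by 0.29 ± 0.124 (n = 48, p = 0.0231), 1 of 4 genes against 4.26% of all genes (0.926% larger), and the adjusted p was 1. When the libraries against their labels were left out (n = 45), the amplitude was larger on cdHFD for 3 of the 4 genes at that threshold, by 0.51 ± 0.205 for Dbp (p = 0.0178), 0.42 ± 0.0903 for Tef (p = 3.96e-05) and 0.42 ± 0.147 for Nfil3 (p = 0.00749), and none passed after adjustment (adjusted p = 0.94, 0.308 and 0.774).

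The level over the day in Hep-Bmal1KO livers was lower on cdHFD for 3 of the 4 genes, against 61.6% of all genes called (29.4% lower). Tef fell by 1.08 ± 0.0956 on the log2 scale (adjusted p = 3.74e-14), Hlf by 0.83 ± 0.0999 (adjusted p = 2.3e-10) and Nfil3 by 0.52 ± 0.12 (adjusted p = 0.000222). Dbp had a log2 fold change of 0.01 ± 0.275 (adjusted p = 0.983), and of 0.64 ± 0.18 without the libraries against their labels (adjusted p = 0.00238).

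Markers of hepatocytes and of some other cells moved with the diet. The summed level of 8 hepatocyte markers, which are dominated by Alb, had a median of 152500 CPM (93190 to 208800) in Hep-Bmal1WT NC, 104600 (79650 to 211900) in Hep-Bmal1KO NC, 75100 (54660 to 91980) in Hep-Bmal1WT cdHFD and 63060 (48980 to 84820) in Hep-Bmal1KO cdHFD livers. All 8 were lower on cdHFD in both genotypes. The medians of the summed level of 6 monocyte and neutrophil markers were 166, 179, 1165 and 1397 CPM in the same order. Those of 6 Kupffer cell markers were 225, 207, 833 and 759 CPM, and those of 6 stellate cell markers 261, 266, 633 and 783 CPM. The first of these sums is mostly Lyz2 (median 389.6 CPM, next S100a9 at 22.56) and the last mostly Dcn (270.5 CPM, next Col3a1 at 66.57). Between genotypes on cdHFD, where Dbp and Hlf fell in Hep-Bmal1KO livers, 4 of 6 monocyte and neutrophil, 4 of 6 stellate cell and 2 of 4 cholangiocyte markers were higher in Hep-Bmal1KO livers and 3 of 8 hepatocyte and 1 of 6 Kupffer cell markers were lower, while none of 6 endothelial and 6 lymphocyte markers passed. Of all genes, 9.54% passed between genotypes on cdHFD. On NC, 2 of 8 hepatocyte markers were lower, 1 of 4 cholangiocyte markers was higher and no marker of the other 5 lists passed. There 12.2% of all genes did. In bulk liver, fewer cells of a type and less RNA per cell cannot be told apart, and the part of cell composition in the levels of the 4 genes was not tested.

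Whether the genotype difference itself differed between diets was tested over all 96 livers. For the level over the day none of the 4 genes passed in edgeR's test or in DESeq2 or had an unadjusted p under 0.05, against 2.95% of all genes after adjustment and 16.4% before it, with differences between the log2 fold changes from -0.20 ± 0.135 for Hlf to 0.10 ± 0.396 for Dbp. For the curve, Tef passed (adjusted p = 0.0151) as 1 of only 8 genes, 0.0515% of all tested, but its adjusted p lay between 0.0126 and 0.175 when 1 replicate of every group was left out in turn. Dbp had an adjusted p of 0.0746 with all libraries and of 0.00012 without those against their labels, where Tef had 0.000907 and 0.36% of all genes passed. The times at which the genotypes differed show this for Tef, which was higher at ZT2 on NC and lower at ZT2 on cdHFD in Hep-Bmal1KO livers.

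The genotype difference in level did not pass a test of its difference between the sexes for any of the 4 genes in edgeR's test or in DESeq2 (0.045% of all genes passed in edgeR), and 1 gene, Tef, had an unadjusted p under 0.05, as had 8.5% of all genes. The difference for Tef was -0.30 ± 0.125 on the log2 scale (adjusted p = 0.46), in the direction of a more negative difference in males.

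A list of 19 genes known as targets of the PAR factors or NFIL3 in liver was followed next. The list was chosen with earlier results of these data known. In Hep-Bmal1KO livers on NC, 7 of the 19 were lower and none higher over the day, against 12.2% of all genes called in either direction, with a median log2 fold change of -0.57 beside -0.01 over all genes. The 4 with the smallest p were Pdxk (-0.72 ± 0.115, adjusted p = 1.43e-05), which makes pyridoxal phosphate, Cyp2a5 (-2.06 ± 0.325, adjusted p = 1.49e-05), a coumarin hydroxylase, Alb (-0.83 ± 0.154, adjusted p = 0.000177), serum albumin and a hepatocyte marker, and Por (-0.74 ± 0.164, adjusted p = 0.00161), the electron donor of microsomal cytochromes P450. Alb is also on the list of hepatocyte markers, and its promoter drives Cre. Without the libraries against their labels, 12 of the 19 targets were lower and none higher on NC, against 16.8% of all genes called.

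On cdHFD 6 of the 19 targets were lower and 1 was higher in Hep-Bmal1KO livers, against 9.54% of all genes called, with a median of -0.16 beside 0.01 over all genes. Cyp2a5 was lower by -2.94 ± 0.331 (adjusted p = 2.81e-07), Cyp2a4, a steroid hydroxylase nearly identical to it in sequence, by -2.07 ± 0.353 (adjusted p = 9.75e-05), and Pdxk by -0.45 ± 0.0828 (adjusted p = 0.000138). Cyp2b10, a drug-metabolising enzyme induced through the receptor CAR, was higher by 1.84 ± 0.345 (adjusted p = 0.000325). Reads of Cyp2a4 and Cyp2a5 may be split between them, so the value of each alone is uncertain.

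With diet, 12 of the 19 targets were lower and 2 higher on cdHFD in Hep-Bmal1WT livers, where 55.4% of all genes were called, with a median of -0.63 beside 0.01 over all genes. In Hep-Bmal1KO livers 7 were lower and 3 higher, where 61.6% of all genes were called, with a median of -0.42 beside 0.02. Most genes thus passed with diet, and the count of targets in Hep-Bmal1KO livers was near that share. Fgf21, the fasting hormone of the liver, rose by 4.28 ± 0.37 in Hep-Bmal1WT (adjusted p = 2.15e-13) and 4.19 ± 0.249 in Hep-Bmal1KO livers (adjusted p = 8.88e-19). Acot2, a mitochondrial acyl-CoA thioesterase, rose by 2.79 ± 0.162 (adjusted p = 4.68e-19) and 2.995 ± 0.19 (adjusted p = 7.1e-18). These 2 genes moved in the opposite direction to the list's median.

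**Figure D5:**
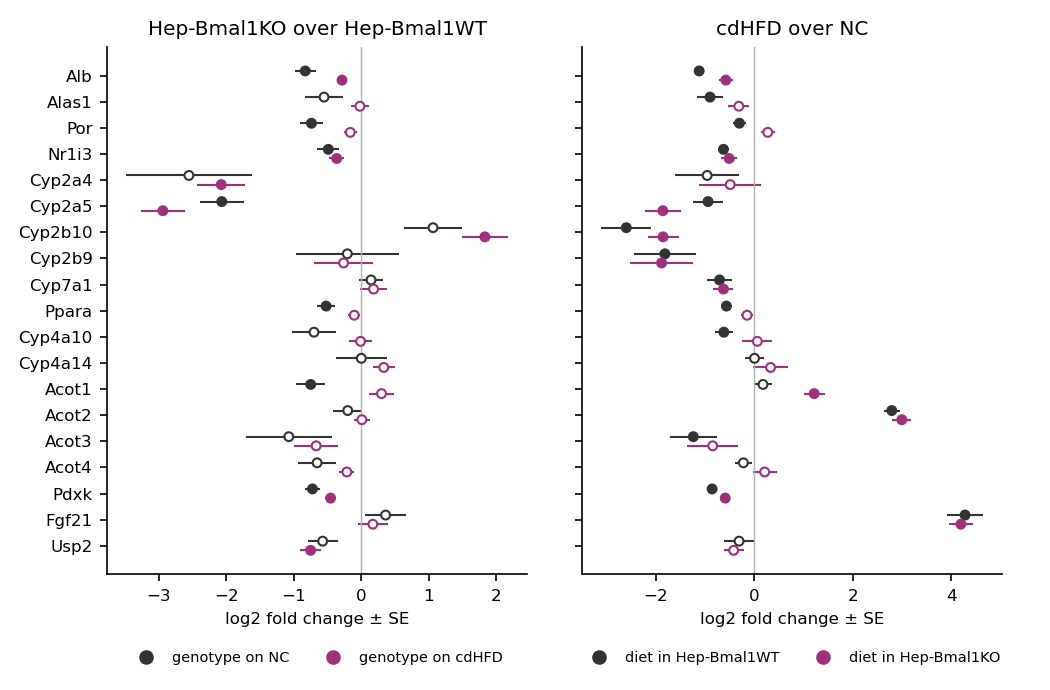
Log2 fold change (points, with bars of 1 SE) of the 19 target genes, at left for Hep-Bmal1KO over Hep-Bmal1WT on each diet and at right for cdHFD over NC in each genotype. Filled points have an adjusted p under 0.05. Cyp2a5 was lower in Hep-Bmal1KO livers on both diets (-2.06 and -2.94), and Fgf21 was higher on cdHFD in both genotypes (4.28 and 4.19).

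The genotype difference differed between diets for 2 of the 19 targets, against 2.95% of all genes. For Acot1, a cytosolic acyl-CoA thioesterase, the log2 fold change was greater on cdHFD by 1.05 ± 0.29 (adjusted p = 0.0261), and for Alb by 0.55 ± 0.165 (adjusted p = 0.049). Without the libraries against their labels, 5 of the 19 targets passed this test, against 5.83% of all genes.

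Rhythms were called in 7 of the 19 targets in Hep-Bmal1WT NC, 1 in Hep-Bmal1KO NC, 8 in Hep-Bmal1WT cdHFD and 4 in Hep-Bmal1KO cdHFD livers, where 19%, 4.37%, 14.5% and 3.6% of all genes were rhythmic, so that the count in Hep-Bmal1KO NC livers was near the share of all genes. Usp2, a deubiquitinase, was rhythmic in all 4, with peaks 2.98, 3.25, 2.80 and 2.43 hours after that of Dbp. Its amplitude was 1.72 ± 0.237 in Hep-Bmal1WT NC, 0.73 ± 0.199 in Hep-Bmal1KO NC, 1.04 ± 0.136 in Hep-Bmal1WT cdHFD and 0.99 ± 0.13 in Hep-Bmal1KO cdHFD livers. Por and Pdxk were rhythmic in all groups but Hep-Bmal1KO NC, Por with peaks 2.14, 2.16 and 1.73 hours and Pdxk with peaks 4.79, 5.93 and 5.42 hours after Dbp. Pdxk was the 1 target whose curve differed between genotypes on NC (adjusted p = 0.026). Fgf21 peaked at ZT 6.42 ± 0.82 on NC and 18.33 ± 0.989 on cdHFD in Hep-Bmal1WT livers, 19.94 and 12.58 hours after Dbp, so its peak did not keep its distance from Dbp.

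Genes of the clock arms that drive Dbp and Nfil3, also chosen with earlier results of these data known, gave the following counts. Of 11 genes of the E-box arm, 9 were rhythmic in Hep-Bmal1WT NC, 2 in Hep-Bmal1KO NC, 7 in Hep-Bmal1WT cdHFD and 6 in Hep-Bmal1KO cdHFD livers, beside the same 19%, 4.37%, 14.5% and 3.6% of all genes. Over the day on NC, 3 were higher and 2 lower in Hep-Bmal1KO livers (median -0.18), against 12.2% of all genes called, with Npas2, a partner of BMAL1, at 1.93 ± 0.445 (adjusted p = 0.00224), Cry1, a repressor, at 1.07 ± 0.237 (adjusted p = 0.00147) and Ciart, a repressor, at -1.84 ± 0.439 (adjusted p = 0.00321). On cdHFD 1 was higher and 3 were lower (median -0.04), against 9.54%. Without the libraries against their labels 4 were higher and 3 lower on NC, against 16.8% of all genes. On cdHFD 3 were then higher and 3 lower, against 12.9%.

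Of the 4 genes of the nuclear receptor arm, which acts on Nfil3, 3 were rhythmic in Hep-Bmal1WT NC, 2 in Hep-Bmal1KO NC and 3 in each group on cdHFD. The shares of all genes were again 19% and 4.37% on NC and 14.5% and 3.6% on cdHFD, Hep-Bmal1WT first. On NC the REV-ERB genes Nr1d1 (-1.03 ± 0.275, adjusted p = 0.00852) and Nr1d2 (-1.30 ± 0.257, adjusted p = 0.000363) were lower in Hep-Bmal1KO livers. On cdHFD none of these 4 passed in edgeR's test between genotypes, against 9.54% of all genes. An unadjusted p under 0.05 was seen for 3 of them, and the share of all genes under that threshold is not given here. Without the libraries against their labels 3 of the 4 passed there, 1 higher and 2 lower, against 12.9% of all genes. In Hep-Bmal1WT livers the diet changed the curve of 7 of 11 and 3 of 4 genes of the 2 arms, against 6.14% of all genes. In Hep-Bmal1KO livers it changed that of 0 of 11 and 0 of 4, against 0.888%. There 4 and 2 had an unadjusted p under 0.05, as had 13.8% of all genes. Without the libraries against their labels, 2 of 11 and 1 of 4 passed in Hep-Bmal1KO livers, against 1.34%.

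The 24 group means were used to find the genes whose pattern was most like that of each factor, as a description over groups that share diets, genotypes and times. Dbp was most like Nr1d2 (Pearson's r = 0.916), Ciart (0.91) and Per3 (0.89), all genes of the clock, and most opposite to Lgalsl (-0.949), Nfil3 (-0.935) and Arntl (-0.904). Nfil3 was most like Abtb2 (0.917), Zfp36l1 (0.912) and Lgalsl (0.908), and most opposite to Dbp (-0.935), Ank3 (-0.892) and Slc35d1 (-0.877). Each was thus among the 3 genes most opposite to the other, of all 15548.

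Tef and Hlf followed other genes. Tef was most like Smarca2 (0.881), Hlf (0.88) and Upp2 (0.875) and most opposite to Chka (-0.88), Tubb2a (-0.862) and Dhrs9 (-0.857). Hlf was most like Thrsp (0.937), Etnk2 (0.926) and Smarca2 (0.909), and most opposite to Gm13889 (-0.914), the lipid droplet gene Plin2 (-0.89) and Adamts4 (-0.889). Among the 4 factors r was 0.67 for Dbp with Tef, 0.412 for Dbp with Hlf, -0.488 for Tef with Nfil3 and -0.205 for Hlf with Nfil3.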

How the data were processed

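BRB-seq was run on the livers of 96 mice. In this method, barcoded 3′ mRNA ends of many samples are sequenced together. The authors demultiplexed the reads with BRB-seq tools, aligned them to mm10 with STAR and counted them per gene with HTSeq (the submitters' notes also name featureCounts). They deposited raw counts, and whether molecular identifiers were used is not given in the sources used here. The HTSeq summary lines, which name no gene and held 22.57% to 39.86% of the reads of a library, were kept out of library sizes. With 1861740 to 9718615 counts per library, genes with at least 100 counts over all libraries were kept (15548).

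Groups followed the labels. Replicate numbers follow the order of accession. Levels, curves (cosine and sine of 24 hours) and single times were tested with edgeR 4.0.16 (quasi-likelihood, TMM), adjusted by Benjamini-Hochberg over all genes, at 0.05. Levels were tested with ZT as a term. Amplitude and peak time were fitted on variance-stabilized values (DESeq2 1.42.0, R 4.3.3) and compared as in CircaCompare, with unadjusted p-values as in the study. These tests across all genes use 24 to 96 livers. CPM and log2 ratios were computed here. The fits of levels, curves, amplitude and peak time were tested on counts simulated from the livers on NC, and the other steps were not. The alternatives were DESeq2, other size factors, filters, curve shapes and scales, sex as a covariate or each sex alone, and libraries left out. The genes named are the 4 factors, up to 4 of each list with the smallest p, and the 3 most and least alike, less 1 gene not reported here. The factors and lists were chosen with earlier results of these data known. At single times and for genotype by sex, the p-values measure the spread between mice of a group. In the other tests the spread also holds what the model leaves out. For levels this is any change of the difference over the day. For curves, amplitudes and peak times it is any departure from a 24-hour cosine.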

Additional observations from a re-analysis of the deposited data

Results flagged for a closer look

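Of 96 groups of 4 livers (4 genes in 24 groups), 10 held a value far from the other 3 by Dixon's ratio, which chance flags in about 1 in 20 groups. Of these, 6 were in libraries that went against their genotype label. In Hep-Bmal1KO NC livers they were Dbp at ZT6 in replicate 4, at 146.52 CPM, Dbp at ZT10 in replicate 3, at 365.84 CPM, Tef at ZT10 in replicate 3, at 152.06 CPM, and Nfil3 at ZT6 in replicate 4, at 8.8122 CPM beside 23.596 to 26.103 CPM. On cdHFD they were Nfil3 in Hep-Bmal1WT ZT10 replicate 3, at 13.562 CPM beside 4.1375 to 5.5199 CPM, and Hlf in Hep-Bmal1KO ZT14 replicate 1, at 18.95 CPM beside 11.974 to 12.435 CPM.

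The other 4 were in libraries that lay nearer their own label. Tef in Hep-Bmal1WT cdHFD ZT6 replicate 3 was at 63.463 CPM beside 71.125 to 71.779 CPM. Hlf in Hep-Bmal1WT cdHFD ZT14 replicate 4, the only female of that group, was at 18.177 CPM beside 13.243 to 14.035 CPM. Nfil3 in Hep-Bmal1KO NC livers was at 26.336 CPM in ZT2 replicate 2, beside 21.256 to 21.861 CPM, and at 27.25 CPM in ZT14 replicate 2, beside 20.409 to 20.713 CPM.

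The difference in the curve of Tef between genotypes differed between diets, with an adjusted p of 0.0151 in edgeR's test of the interaction.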

How the results depend on the processing

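No paired analysis was possible because the replicate numbers follow the order of accession. The diet shifts of the peak in Hep-Bmal1WT livers were the firmest result: all 4 genes passed in every setting tried, those that left out 1 replicate of every group included. Over all settings, a count of the 4 genes moved in 80 cases and stayed the same or close to it in 309. Of 48 differences at single times, 31 had an unadjusted p of 0.05 or more and were called in no setting. They were left out for that reason, and their recomputed values are not given (log2 fold changes with all libraries from -0.697 to 0.671).

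The counts below are of the 4 genes called, and where a count moved, the cause was not tested. With DESeq2 they were 1 for the genotype level on NC, 2 for the genotype curve on NC and 2 for the curve of genotype by diet. Without the libraries against their labels they were 2 and 3 for the genotype level and curve on NC, 2 at NC ZT6 and 2 at cdHFD ZT6, 1 for the genotype peak time on cdHFD, 1 for the diet curve, 3 for the amplitude and 1 for the peak time in Hep-Bmal1KO livers, and 2 for the curve of genotype by diet. The stricter filter gave 0 for the genotype curve on NC. With no filter beyond 1 count, 1 gene was called for the genotype level on cdHFD, 2 for the curve of genotype by diet and 1 for genotype by sex. ZT as a factor gave 2 for the genotype curve on NC and 2 on cdHFD, a 12-hour harmonic gave 2 for the curve of genotype by diet, and the cosinor F test gave 1 rhythmic gene in Hep-Bmal1KO NC livers. With adjusted p-values the amplitude counts were 1 and 0 for genotype on NC and cdHFD and 0 for diet in Hep-Bmal1KO livers, and the peak time count for genotype on cdHFD was 1.

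In males alone 1 gene was called for the genotype level on NC, 0 on cdHFD, 3 at cdHFD ZT6, 1 at cdHFD ZT10, 1 for the genotype peak time on cdHFD and 1 for the diet peak time in Hep-Bmal1KO livers. In females alone 0 were called for the genotype level on cdHFD, 0 at NC ZT2, ZT10 and ZT14, 1 at cdHFD ZT2, 0 at cdHFD ZT6, 1 for the genotype amplitude on cdHFD and 0 for the diet amplitude in Hep-Bmal1KO livers. Each sex alone leaves fewer livers per group. Of all genes, 506 passed in males alone at cdHFD ZT10, against 2 with all livers. Females alone gave 1 of all genes at NC ZT10, against 413 with all livers, and 184 at NC ZT14, against 726.

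Leaving out replicate 1, 2, 3 or 4 of every group gave 0 to 1 rhythmic genes in Hep-Bmal1KO NC livers, 0 to 1 for the genotype level on NC and 0 to 1 on cdHFD, 0 to 1 for the genotype curve on NC and 0 to 1 on cdHFD, 2 to 4 for the diet curve in Hep-Bmal1WT livers and 0 to 2 for the curve of genotype by diet. At single times it gave 0 to 1 at NC ZT2, 0 to 3 at NC ZT10, 1 to 2 at NC ZT14, 0 to 2 at cdHFD ZT2 and 0 to 1 at cdHFD ZT6. For genotype on cdHFD it gave 1 to 3 amplitudes and 1 to 2 peak times, and for diet in Hep-Bmal1KO livers 0 to 1 amplitudes and 0 to 1 peak times. Counts over all genes follow, with that from all livers in brackets. They were 134 to 188 (679) for rhythm in Hep-Bmal1KO NC livers. The genotype level gave 915 to 1601 (1897) on NC and 485 to 1335 (1484) on cdHFD. The genotype curve gave 0 to 4 (47) on NC and 5 to 16 (60) on cdHFD. The diet curve in Hep-Bmal1WT livers gave 329 to 521 (954), and that of genotype by diet 0 to 14 (8).

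The sign of a value turned only for differences that had not passed, and turns among the 31 left out above are not listed. In females alone these were the level of genotype by diet for Dbp (-0.479) and Nfil3 (0.23), Nfil3 at NC ZT14 (-0.007), and the diet amplitude in Hep-Bmal1KO livers for Dbp (-0.333) and Hlf (0.0638). In males alone they were the peak time between genotypes for Dbp on NC (0.000343 hours) and Nfil3 on cdHFD (-0.334 hours), the diet amplitude of Hlf in Hep-Bmal1WT livers (-0.0116) and the diet peak time of Tef in Hep-Bmal1KO livers (0.227 hours). With 1 replicate of every group left out in turn, the values ran from -0.135 to 0.318 for the diet level of Dbp in Hep-Bmal1KO livers, -0.178 to 0.439 for Dbp in the level of genotype by diet, -0.136 to 0.001 for Hlf in genotype by sex and -1.954 (without replicate 4) to 0.137 (without replicate 3) for Dbp at NC ZT6. The diet amplitude ran from -0.134 to 0.106 for Hlf and -0.25 to 0.0139 for Nfil3 in Hep-Bmal1WT livers, and from -0.135 to 0.246 for Dbp and -0.131 to 0.0109 for Hlf in Hep-Bmal1KO livers. The peak time ran from -0.19 to 0.6 hours for Nfil3 between genotypes on cdHFD and from -1.14 to 0.019 hours for Tef between diets in Hep-Bmal1KO livers.

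Among all genes, the count with a different curve between genotypes on NC was 47, and 159 without the libraries against their labels, 100 with no filter, 0 with the stricter filter, 3 with the 12-hour harmonic and 8 with ZT as a factor.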

Other observations

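The curves were also fitted in males and females apart, after the values at NC ZT14 had been seen, with no test. In Hep-Bmal1WT livers at NC ZT14 Dbp stood at 118 and 123 CPM in the 2 males and at 25 and 32.5 CPM in the 2 females, while Nfil3 stood at 7.36 and 10.7 CPM in the males and at 24.5 and 17.3 CPM in the females. At cdHFD ZT2 it was the females of Hep-Bmal1WT that were higher for Dbp, at 92.7 and 208 CPM against 55.3 and 81.8 CPM in the males, and lower for Nfil3, at 3.81 and 1.83 CPM against 12.1 and 9.95 CPM.

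The fitted peak was earlier in females in 15 of 16 pairs of a gene and a group of genotype and diet, the exception being Tef in Hep-Bmal1KO NC livers at 0.34 hours later. The 4 genes were fitted in the same livers, so these pairs are not independent. In Hep-Bmal1WT NC livers Dbp peaked at ZT 11.38 ± 0.511 in males and 9.65 ± 0.539 in females (SE, 12 livers each), a difference of -1.73 hours beside a median of -0.79 hours over the rhythmic genes. In Hep-Bmal1WT cdHFD livers the differences were -1.08 hours for Dbp, -2.02 for Tef, -3.72 for Hlf and -2.20 for Nfil3, beside a median of 0.18 hours, with 13 males and 11 females. In Hep-Bmal1KO NC livers they were -3.10 hours for Dbp, -1.84 for Hlf and -0.72 for Nfil3, beside a median of 0.26 hours. Both libraries against their label in that group, ZT6 replicate 4 and ZT10 replicate 3, came from females, so the female curves include them. The amplitude of Dbp there was 1.78 ± 0.52 in females and 0.89 ± 0.179 in males. No fit by sex was made without the libraries against their labels. In Hep-Bmal1KO cdHFD livers the median was -0.79 hours, and Dbp at -0.81 and Nfil3 at -0.58 hours lay near it, with Tef at -1.34 and Hlf at -3.94 hours.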
